A study of Mus musculus with 36 samples.

Results

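Whole kidneys of C57BL/6 mice, labelled b6j, were compared between the higher and the lower of 2 cadmium doses. The mice had received CdCl2 at 2 mg/kg (6 mice, 6 libraries) or at 0.5 mg/kg (6 mice, 6 libraries), and these 12 libraries were chosen by their labels from the 36 of the series. The 6 kidneys of untreated b6j mice served as a background, and 12 kidneys of ob/ob mice on the same strain (labelled ob), 6 at 2 mg/kg and 6 at 0.5 mg/kg, were used to see whether the dose step was alike in both. ob/ob mice lack working leptin and become obese. The labels record neither route, duration, sex nor age. The series title places the study in chronic cadmium accumulation and kidney damage, and the comparison asks which kidney transcripts separate the higher dose from the lower one.

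Cadmium reaches the kidney largely bound to metallothionein, small cysteine-rich proteins that hold metal ions. The proximal tubule, the stretch of the nephron that takes back most filtered solutes and protein, absorbs that complex through the receptors megalin and cubilin and stores the metal for a long time. Metal that is not held by metallothionein depletes glutathione, and in cells under such stress the transcription factor NRF2, normally kept low by KEAP1, turns on genes for glutathione synthesis, conjugation and export. Metallothionein genes themselves are turned on by MTF1, a zinc-sensing factor that binds metal response elements. Damaged tubule cells are known to lose transporters, to make the injury marker KIM-1 (Havcr1) and to arrest their cycle under p53.

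Levels below are in CPM, each gene's counts scaled to a common library total, and 3 levels in a row are the lowest, the median and the highest of a group's 6 libraries. Changes are log2 ratios of 2 over 0.5 mg/kg ± standard error, from edgeR's quasi-likelihood test fitted to the 18 b6j libraries. That test gives no standard error, so it was taken as the size of the change divided by the square root of the test's F statistic. Calls were made where p, adjusted by Benjamini-Hochberg over the 17003 genes tested, fell below 0.05. The 12 libraries held 27943013 to 36710100 counted reads, so that 3 counts were worth 0.0817 to 0.107 CPM. The first principal component of the b6j libraries held 34.4% of the variance and set the 6 libraries at 2 mg/kg (37.5 to 59.2) apart from those at 0.5 mg/kg (-31.9 to -13.0). At 0.5 mg/kg the value of -31.9 was that of b6j_Cd0.5 replicate 6, inside the range of the untreated libraries (-38.7 to -21.4). The other 5 lay between -14.7 and -13.0. Some libraries stood apart. b6j_Cd0.5 replicate 6 lay at -48.8 on the third component, where the other 5 at 0.5 mg/kg lay between -18.4 and 12.3, and its deviation from its group ran against exon length (rank correlation -0.25 across genes, against -0.108 to 0.128 in the other 11 libraries). b6j_Cd2 replicate 5 carried liver transcripts (summed liver list 1830 CPM, with the lowest library of its group at 289.8 CPM), b6j_Cd2 replicate 3 adrenal cortex transcripts (summed list 84.0 CPM, lowest of its group 4.22 CPM), and b6j_Cd2 replicate 2 the most fat cell transcripts (168 CPM). The labels give no batch or date.

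Of the 17003 genes tested, 4763 (28%) differed between the doses, 2314 higher (13.6%) and 2449 lower (14.4%) at 2 mg/kg. The shares of 13.6% and 14.4% are the background for each list count below. A count near them says nothing particular about its list. Rises were larger than falls. Among called genes 598 rose over 2-fold and 106 fell over 2-fold, together 4.14% of genes tested, while 225 rose and 4 fell over 4-fold and 92 rose over 10-fold. Most calls were small, and 2973 of them had a log2 change below 0.5 in size. For 1134 genes (6.67%) all 6 libraries at 2 mg/kg lay above all 6 at 0.5 mg/kg, and for 1186 (6.98%) all lay below. The median change over all genes was 0.02. With the 12 compared libraries alone in the fit 4368 genes were called, and with b6j_Cd2 replicate 5 and b6j_Cd0.5 replicate 6 both left out 3969. Scaling decides the centre of these changes. With total counts in place of the trimmed mean the share of calls that were higher was 72.1% in place of 48.6%, the count of falls was 1441, and the median change over all genes was 0.11. The step from no cadmium to 0.5 mg/kg, which shares the 0.5 mg/kg libraries with this comparison, had 119 calls (0.7%).

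**Figure D1:**
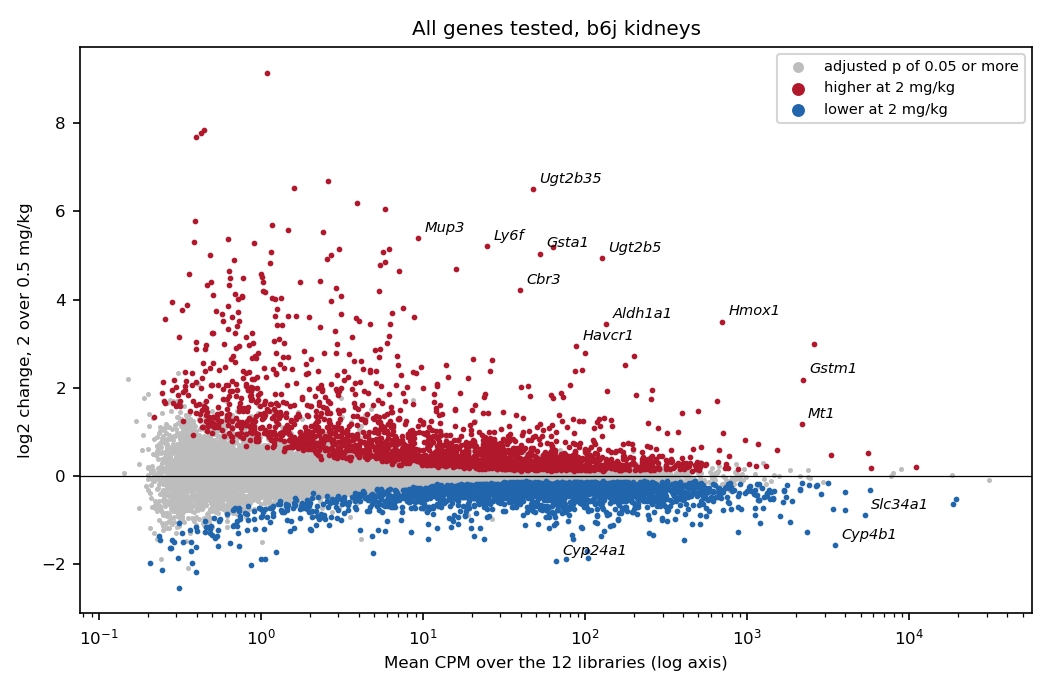
Each point is 1 of the 17003 genes tested, placed by its mean CPM over the 12 libraries (log axis) and its log2 change of 2 over 0.5 mg/kg in b6j kidneys; red points were called higher and blue points lower at an adjusted p below 0.05. Rises reach further than falls, with 225 genes over 4-fold higher and 4 over 4-fold lower.

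The metallothioneins Mt1 and Mt2 both rose further at the higher dose. Mt1 held 2435, 2827 and 3797 CPM at 2 mg/kg, against 1120.1, 1293 and 1745 CPM at 0.5 mg/kg. Mt2 held 13.4, 17.8 and 25.5 CPM at 2 mg/kg, against 5.94, 6.54 and 9.21 CPM at 0.5 mg/kg. In both genes every library at 2 mg/kg lay above every library at 0.5 mg/kg. The changes were 1.18 ± 0.13 for Mt1 (adjusted p = 7.7e-07) and 1.38 ± 0.19 for Mt2 (adjusted p = 1.3e-05). In the step below this one, 0.5 mg/kg over untreated, the same fit gave 3.56 ± 0.14 for Mt1 and 3.84 ± 0.24 for Mt2, with untreated medians of 110 and 0.393 CPM. The files put Mt2 far below Mt1 in every library, but the 2 levels cannot be compared. In the counting annotation 432 of the 588 exon bases of Mt2 (73.5%) also lie in an exon of Gm45774, a gene on the opposite strand, and featureCounts by default leaves out a read that falls in 2 genes, with strand ignored. None of the 1246 exon bases of Mt1 is shared. The CPM of Mt2 thus leaves out reads by an amount that the counts do not give. Mt3, the metallothionein best known from brain, was near absent, with 0.514, 0.835 and 1.15 CPM at 2 mg/kg and 0.234, 0.528 and 1.14 CPM at 0.5 mg/kg, and was not called (0.47 ± 0.40, adjusted p = 0.42).

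Stretches before the annotated starts of Mt1 and Mt2 are shown because both genes are classic targets of MTF1 and sit beside each other on chromosome 8. The 250 bases before each gene's start are printed 5′ to 3′ from the RefSeq promoter table on GRCm38.p6, both on the plus strand, with matches of the metal response core in capitals (TGCACNC or TGCGCNC, searched on both strands; these forms do not overlap each other here). The Mt1 stretch is chr8:94178839-94179088 and the Mt2 stretch is chr8:94172368-94172617.
Mt1: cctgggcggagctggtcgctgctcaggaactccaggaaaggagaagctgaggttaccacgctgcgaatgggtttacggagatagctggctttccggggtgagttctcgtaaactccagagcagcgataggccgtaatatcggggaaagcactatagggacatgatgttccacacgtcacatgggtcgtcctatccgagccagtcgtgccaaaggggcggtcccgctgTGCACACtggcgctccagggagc
Mt2: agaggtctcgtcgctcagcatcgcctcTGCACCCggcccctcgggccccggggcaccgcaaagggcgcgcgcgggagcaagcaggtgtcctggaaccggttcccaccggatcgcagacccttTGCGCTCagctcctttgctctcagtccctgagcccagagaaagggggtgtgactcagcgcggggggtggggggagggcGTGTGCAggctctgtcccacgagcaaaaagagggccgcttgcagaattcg
The Mt1 stretch holds 1 match, and the whole 300-base window, which runs 50 bases past the start, holds 3. The Mt2 stretch holds 3, with 4 in its window. The other Mt1 matches thus lie outside the printed stretch, at or past the annotated start. Each count depends on where the annotation puts that start, and whether transcription begins there in these kidneys was not tested. The counts therefore do not show that the promoter in use holds fewer cores in Mt1 than in Mt2. Of all 32851 promoter windows, 25.7% hold at least 1 match and 0.517% hold 4 or more. Of 19 rising genes named below by rule, 17 had a window, 5 of them with a metal response core and 1 with the antioxidant response core (TGACNNNGC, both strands), which 12.4% of all windows hold. A match is a description of letters in a window, not a bound site.

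Among 15 tested genes of zinc and metal transport 4 rose and 0 fell, a median change of 0.14. Slc40a1, ferroportin, the iron exporter, held 95.5, 121 and 134 CPM at 2 mg/kg and 40, 47.6 and 62.9 CPM at 0.5 mg/kg, without overlap (1.28 ± 0.11, adjusted p = 2.4e-08). Tfrc, the transferrin receptor, held 122, 162 and 207 CPM at 2 mg/kg and 82.5, 87.4 and 97.2 CPM at 0.5 mg/kg (0.90 ± 0.10), and Slc39a5, the zinc importer ZIP5, rose by 0.42 ± 0.09. The carriers known to bring cadmium into cells were not called. Slc39a8 (ZIP8) changed by -0.01 ± 0.13, Slc39a14 (ZIP14) by -0.19 ± 0.13 and Slc11a2 (DMT1) by -0.02 ± 0.08, with adjusted p of 0.95, 0.28 and 0.85. Slc39a10 (ZIP10) held 16, 20.5 and 24.1 CPM at 2 mg/kg and 13.9, 22.7 and 25.6 CPM at 0.5 mg/kg, a change of -0.07 ± 0.11 (adjusted p = 0.67), while its level at 0.5 mg/kg was already below untreated kidneys (-0.77 ± 0.11, untreated median 36.7 CPM). The small changes of Slc39a8, Slc39a10 and Slc11a2 had the other sign when libraries were scaled by total counts.

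Hmox1, heme oxygenase 1, which splits heme into biliverdin, iron and carbon monoxide, held 889, 1306 and 1801 CPM at 2 mg/kg, against 100.3, 114 and 129.7 CPM at 0.5 mg/kg. The lowest library at 2 mg/kg lay well above the highest at 0.5 mg/kg, and the change of 3.50 ± 0.17 is 11.3-fold (adjusted p = 6.1e-12). Of 13 tested heme and iron genes 7 rose and 1 fell, with a median change of 0.45. Without b6j_Cd0.5 replicate 5 there were 4 rises. With b6j_Cd2 replicate 5 and b6j_Cd0.5 replicate 6 both left out there were 6. The 7 include Hpx, which the liver list below also holds. Blvrb, biliverdin reductase B, rose by 1.83 ± 0.13 with 61, 104 and 115 CPM at 2 mg/kg and 20.4, 26.9 and 33.8 CPM at 0.5 mg/kg. The other reductase gene, Blvra, was the member that fell, by -0.26 ± 0.08. Slc48a1, which moves heme out of lysosomes, rose by 0.69 ± 0.06. The ferritin chains Fth1 (0.52 ± 0.10) and Ftl1 (0.45 ± 0.15) and the heme synthesis enzyme Alas1 (0.43 ± 0.15) rose less, with overlapping groups. The call of Ftl1 ends without any one of b6j_Cd2 replicates 1, 2, 3 and 6 or b6j_Cd0.5 replicates 1, 3, 4 and 5 (adjusted p = 0.05 to 0.068), and that of Alas1 without b6j_Cd2 replicate 1, 3 or 6 or b6j_Cd0.5 replicate 3, 4 or 5 (adjusted p = 0.062 to 0.083).

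Of 23 tested NRF2 targets and core antioxidant genes 14 rose and 2 fell, and 12 members lay higher with no overlap between the groups. The median change was 0.60. Cbr3, carbonyl reductase 3, led them with 58.1, 70.3 and 105 CPM at 2 mg/kg, against 2.84, 3.71 and 5.41 CPM at 0.5 mg/kg (4.21 ± 0.17, 18.5-fold, adjusted p = 2.7e-13). Slc7a11, the cystine importer that feeds glutathione synthesis, held 5.73, 6.78 and 13.8 CPM at 2 mg/kg and 0.214, 0.715 and 1.69 CPM at 0.5 mg/kg (3.44 ± 0.44). Both subunits of the enzyme that starts glutathione synthesis rose, the catalytic Gclc by 1.71 ± 0.18 and the modifier Gclm by 0.61 ± 0.08. Gclc reached 665, 997 and 1236 CPM at 2 mg/kg, against 208, 300.3 and 434 CPM at 0.5 mg/kg. Nqo1, a quinone reductase, rose by 1.14 ± 0.11, the thioredoxin reductase Txnrd1 by 1.44 ± 0.11, sulfiredoxin Srxn1 by 1.25 ± 0.22, the epoxide hydrolase Ephx1 by 1.93 ± 0.13 and catalase, Cat, by 0.60 ± 0.07. These genes did not overlap between the doses. The 2 members that fell were Gpx3, the secreted glutathione peroxidase made by the proximal tubule (14774, 15344 and 18482 CPM at 2 mg/kg, 19829, 21281 and 28673 CPM at 0.5 mg/kg, -0.51 ± 0.08), and Sod2, the mitochondrial superoxide dismutase (-0.25 ± 0.05).

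Glutathione S-transferases, which attach glutathione to reactive molecules, split by class. Of 22 tested 12 rose, all of them in the alpha, mu, omega and microsomal groups, and 4 fell (Gstz1, Gstt1, Gstk1 and Gstt2), with a median change of 0.49. Gsta1 held 38.7, 112 and 160.2 CPM at 2 mg/kg, against 1.51, 2.44 and 7.36 CPM at 0.5 mg/kg (5.04 ± 0.50, adjusted p = 2.9e-07). Gstm3 held 13.4, 29.4 and 50.5 CPM at 2 mg/kg, against 0.849, 1.05 and 2.07 CPM at 0.5 mg/kg (4.69 ± 0.29). The abundant mu-class gene Gstm1 held 2898, 3559 and 4532 CPM at 2 mg/kg, against 681, 807 and 922 CPM at 0.5 mg/kg (2.19 ± 0.09, adjusted p = 7.1e-13). None of the 3 overlapped. Gsta2 rose by 1.48 ± 0.15, Gsta4, which handles lipid peroxidation products, by 2.51 ± 0.15 and the membrane-bound Mgst1 by 1.28 ± 0.09. On the falling side Gstz1, an enzyme of tyrosine breakdown, changed by -0.56 ± 0.09 and Gstt1 by -0.46 ± 0.08, without overlap. Counting of reads between near-identical members such as Gsta1 and Gsta2 is uncertain, and the same holds for the Ugt2b, Ces1, Mup, Nat8f and Hba genes below.

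Of 10 tested enzymes that supply NADPH, which glutathione reductase spends, 4 rose and 1 fell (median 0.12). Pgd, the second NADPH-making step of the pentose phosphate pathway, held 285, 339 and 405 CPM at 2 mg/kg and 133, 148 and 162 CPM at 0.5 mg/kg (1.20 ± 0.08). Tkt, transketolase, rose by 0.58 ± 0.08 and Rpia by 0.64 ± 0.08, both without overlap. The first enzyme, G6pdx, rose by 0.26 ± 0.07 with overlapping groups, and Pgls, the step between, fell (-0.21 ± 0.06). With total counts 8 of the 10 rose and 0 fell, and Pgls was not called (adjusted p = 0.097). In the fit to all 36 libraries neither Pgls (adjusted p = 0.099) nor G6pdx (adjusted p = 0.084) was called.

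Glucuronidation, which makes molecules soluble for export, held the largest rise among called genes averaging 5 CPM or more. Gm, Rik and pseudogene names were left out of that ranking. Ugt2b35 held 66.6, 94.8 and 115 CPM at 2 mg/kg, against 0.804, 0.926 and 1.74 CPM at 0.5 mg/kg. That change of 6.49 ± 0.16 is 90.1-fold, had the smallest p of all genes (adjusted p = 5.0e-17), and began near absence, with an untreated median of 0.131 CPM. Ugt2b5 held 114, 259 and 325 CPM at 2 mg/kg, against 6.15, 7.83 and 10.7 CPM at 0.5 mg/kg (4.94 ± 0.21). Ugt2b34 rose by 2.05 ± 0.13, and Ugdh, which makes the UDP-glucuronic acid these enzymes use, rose by 1.74 ± 0.12 (285, 401 and 477 CPM at 2 mg/kg, 106, 115 and 129.7 CPM at 0.5 mg/kg). Of the 21 tested glucuronosyltransferase and carboxylesterase genes 12 rose and 4 fell (median 0.74). Members moved in both directions. Ugt2b38, already high, held 323, 385 and 676 CPM at 2 mg/kg and 615, 724 and 885 CPM at 0.5 mg/kg (-0.78 ± 0.14). The carboxylesterase Ces1c held 5.48, 8.74 and 43 CPM at 2 mg/kg and 0.0671, 0.499 and 1.07 CPM at 0.5 mg/kg (4.66 ± 0.68, adjusted p = 2.9e-05), where the highest library is the one that carries liver transcripts, while Ces1d fell (-0.97 ± 0.13).

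The called pumps of the ABC family rose, and 3 carriers of cations and carnitine fell. Among 13 tested ABC and drug transporters 7 rose, 3 fell and 3 were not called. The 3 that fell are also in the proximal tubule transporter list below. Abcc4 (MRP4) held 333, 403 and 516 CPM at 2 mg/kg, against 82.1, 104 and 125 CPM at 0.5 mg/kg (1.95 ± 0.14), Abcc2 (MRP2) rose by 0.98 ± 0.09 and Abcc5 (MRP5) by 0.74 ± 0.07. No library overlapped in these 3. The members that fell were Slc47a1, the cation exporter MATE1 (400.1, 476 and 553 CPM at 2 mg/kg, 631, 654 and 709 CPM at 0.5 mg/kg, -0.51 ± 0.07), and the carnitine and cation carriers Slc22a5 and Slc22a4.

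**Figure D2:**
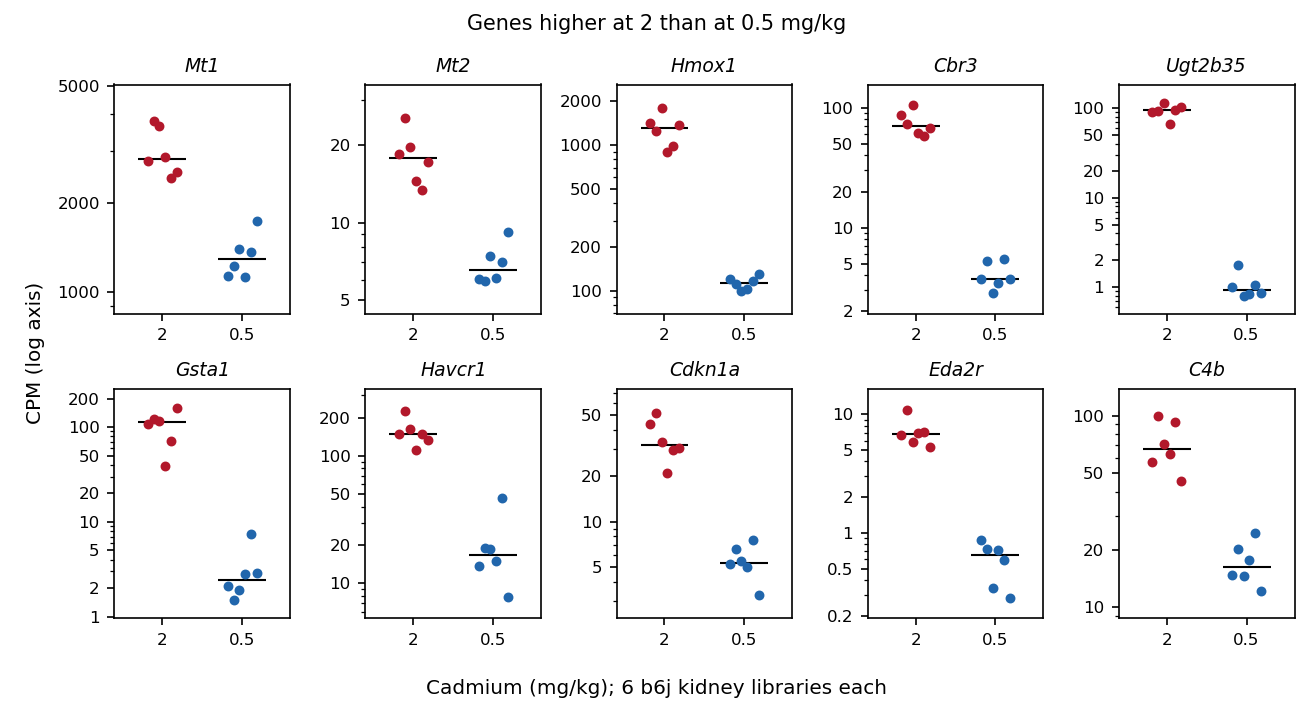
CPM (log axes) of 10 genes in each of the 6 b6j libraries at 2 mg/kg (red, left) and at 0.5 mg/kg (blue, right), with a bar at the group's median. In all 10 the lowest library at 2 mg/kg lies above the highest at 0.5 mg/kg, from Mt1 with medians of 2827 CPM at 2 mg/kg and 1293 CPM at 0.5 mg/kg to Ugt2b35 with medians of 94.8 CPM at 2 mg/kg and 0.926 CPM at 0.5 mg/kg.

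Other large rises belong to none of these groups. Aldh1a1, the retinaldehyde dehydrogenase, held 212, 235 and 307 CPM at 2 mg/kg, against 19.5, 23.1 and 25.4 CPM at 0.5 mg/kg (3.44 ± 0.11, adjusted p = 4.1e-15); it was among the 5 smallest p. Ly6f, a small surface protein of the Ly6 family, held 33.5, 51.3 and 59.8 CPM at 2 mg/kg, against 0.689, 1.3 and 1.82 CPM at 0.5 mg/kg (5.21 ± 0.24, 37.1-fold). Its step from untreated kidneys to 0.5 mg/kg was -0.11 ± 0.28 and was not called (adjusted p = 0.95). Ceacam3 held 7.85, 11.4 and 15.9 CPM at 2 mg/kg, against 0.134, 0.286 and 0.785 CPM at 0.5 mg/kg (5.15 ± 0.34). Serpinb9b, a serine protease inhibitor gene, held 7.99, 9.61 and 21.3 CPM at 2 mg/kg, against 0.169, 0.406 and 0.716 CPM at 0.5 mg/kg (4.85 ± 0.37). None of these 4 overlapped. 3 of the 12 largest rises rest on 1 library. Mup3, Mup20 and Serpina1e, secreted liver proteins, reached 100.5, 61.5 and 58.4 CPM in b6j_Cd2 replicate 5, with medians at 2 mg/kg of 1.83, 1.13 and 0.693 CPM. Without that library none of the 3 was called, with changes of 1.97, 1.26 and 1.24 (adjusted p = 0.091, 0.42 and 0.35). Albumin, Alb, held 19.1, 24.2 and 750.4 CPM at 2 mg/kg and 16.8, 27.9 and 41.4 CPM at 0.5 mg/kg, and its change of 2.39 ± 0.82 was -0.23 without it. The call of Alb also ends without any one of b6j_Cd0.5 replicates 1, 2, 4, 5 and 6 (adjusted p = 0.054 to 0.7, b6j_Cd2 replicate 5 included).

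Injury markers rose broadly: 18 of 27 tested rose and 2 fell, with a median change of 0.89, and 15 members lay higher without overlap. Havcr1, KIM-1, the phosphatidylserine receptor that injured proximal tubule cells put on their surface, held 111, 148 and 227 CPM at 2 mg/kg, against 7.85, 16.7 and 47 CPM at 0.5 mg/kg. All 6 libraries at 2 mg/kg lay above those at 0.5 mg/kg, and the change was 2.94 ± 0.82 (adjusted p = 0.0099). In untreated kidneys its median was 5.28 CPM, with 1 library at 178 CPM. Lcn2, the iron-carrier-binding protein NGAL, held 10.5, 13.8 and 16.6 CPM at 2 mg/kg and 3.07, 6.16 and 7.55 CPM at 0.5 mg/kg (1.21 ± 0.19). Krt20, a keratin of damaged tubule, held 3.89, 10 and 15.1 CPM at 2 mg/kg and 0.671, 1.17 and 2.12 CPM at 0.5 mg/kg (2.88 ± 0.45). Osteopontin, Spp1, held 1133, 1260.5 and 1337 CPM at 2 mg/kg and 496, 667 and 1028 CPM at 0.5 mg/kg (0.82 ± 0.12). Fga, the fibrinogen alpha chain, rose by 1.79 ± 0.19, Tnfrsf12a, the TWEAK receptor, by 1.82 ± 0.22, Gdf15, a secreted stress cytokine, by 2.02 ± 0.25 and Vcam1 by 0.92 ± 0.16. The 2 members that fell were Plin2, a lipid droplet coat (-0.23 ± 0.06), and Krt7 (-0.18 ± 0.05), and neither was called with total-count scaling.

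Of 20 tested p53 targets 15 rose and 1 fell, and 14 lay higher without overlap (median change 0.91). Eda2r, a receptor for ectodysplasin, held 5.33, 6.8 and 10.9 CPM at 2 mg/kg, against 0.285, 0.654 and 0.878 CPM at 0.5 mg/kg (3.57 ± 0.25, adjusted p = 1.9e-09). Cdkn1a, the cell cycle inhibitor p21, held 21, 31.9 and 51.8 CPM at 2 mg/kg, against 3.32, 5.38 and 7.56 CPM at 0.5 mg/kg (2.65 ± 0.34). Neither gene had a library of one dose among those of the other. Phlda3 rose by 1.52 ± 0.12, Trp53inp1 by 1.39 ± 0.11, Ccng1, cyclin G1, by 1.09 ± 0.09 and Mdm2, the ligase that removes p53, by 0.65 ± 0.07. Sesn2, a sestrin that also answers to other stresses, was the one that fell (-0.56 ± 0.20, adjusted p = 0.041), and that call ends without any one of b6j_Cd2 replicates 1, 2, 3, 5 and 6 or b6j_Cd0.5 replicates 4, 5 and 6 (adjusted p = 0.052 to 0.12).

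Genes of cell division rose beside p21. Of 29 tested cell cycle genes 18 rose and none fell (median 0.75; 14 rose with b6j_Cd2 replicate 5 and b6j_Cd0.5 replicate 6 left out). Kif11, a spindle motor, held 2.49, 3.27 and 5.18 CPM at 2 mg/kg and 0.604, 1.24 and 1.72 CPM at 0.5 mg/kg (1.56 ± 0.31), without overlap. Rrm2, which makes DNA precursors, rose by 1.12 ± 0.23, and Mcm6, part of the replication helicase, by 0.42 ± 0.08. Mki67, the marker of dividing cells, held 5.33, 8.83 and 11.2 CPM at 2 mg/kg and 3.71, 4.17 and 5.53 CPM at 0.5 mg/kg with some overlap (0.96 ± 0.25).

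Of 36 transporters and 30 enzymes and identity factors of this segment, all tested, 23 and 25 fell and none rose, with median changes of -0.38 and -0.40 (14.4% of all genes fell). In whole-kidney RNA fewer cells of a type and less RNA per cell cannot be told apart. The summed level of the transporter list was 12430 to 16610 CPM at 2 mg/kg, against 19400 to 23160 CPM at 0.5 mg/kg, and that of the enzyme list 33110 to 48920 CPM at 2 mg/kg, against 60370 to 75910 CPM at 0.5 mg/kg. The falls are modest in size and lean on scaling and spread: with total counts 18 and 18 fell, and in a fit that also holds the 18 ob libraries 9 and 13 fell (24 and 24 with ob_Cd2 replicate 5, a library that stands apart, left out of it).

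Slc34a1, the sodium-phosphate carrier NaPi-IIa, held 3243, 3666 and 4582 CPM at 2 mg/kg, against 5939, 6745 and 8023 CPM at 0.5 mg/kg (-0.89 ± 0.08, adjusted p = 7.1e-08), and no library overlapped. The glucose carrier SGLT2, Slc5a2, fell to 206, 263 and 306 CPM at 2 mg/kg, against 320.1, 350 and 423 CPM at 0.5 mg/kg (-0.49 ± 0.10). The organic anion carrier OAT1, Slc22a6, fell (-0.41 ± 0.09), the neutral amino acid carrier B0AT1, Slc6a19 (-0.63 ± 0.14), Slc6a20b (-0.62 ± 0.09) and the carnitine carrier Slc22a5 (-0.55 ± 0.08). Cyp4b1, a fatty acid and drug hydroxylase, was among the 12 largest falls, with 1080.1, 1605 and 2859 CPM at 2 mg/kg, against 4522, 4967 and 6834 CPM at 0.5 mg/kg (-1.56 ± 0.18). Miox, the inositol oxygenase found almost only in this segment, held 983, 1164 and 1526 CPM at 2 mg/kg, against 2035, 2419.7 and 3050 CPM at 0.5 mg/kg (-1.04 ± 0.11). Gatm, the first step of creatine synthesis, fell (-0.99 ± 0.12). The identity factor Hnf4a held 585, 734 and 784 CPM at 2 mg/kg, against 840.4, 887 and 1026 CPM at 0.5 mg/kg (-0.34 ± 0.06).

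The receptors through which this segment takes up cadmium-metallothionein were not called. Lrp2, megalin, held 2200.2, 2793 and 3141 CPM at 2 mg/kg and 2656, 3047 and 3508 CPM at 0.5 mg/kg (-0.14 ± 0.08, adjusted p = 0.19), and Cubn, cubilin, changed by -0.14 ± 0.09 (adjusted p = 0.29). Of 12 tested genes of this endocytic route 3 rose, among them the chloride-proton exchanger Clcn5 (0.32 ± 0.07), and 2 fell, among them Lrpap1, the chaperone that escorts megalin (-0.39 ± 0.06, without overlap). Over all genes 13.6% rose and 14.4% fell, and 2 of 12 is near that share of falls. The list's median was -0.04, and 0.05 with total counts.

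Of 20 tested genes of gluconeogenesis and glycolysis 9 fell and 5 rose. The falls were 4 enzymes of glucose making and 5 others, among them Gapdh, whose step serves glycolysis and glucose making alike. Of members that serve glycolysis or glucose uptake, Pklr, Hk2, Pfkp and Slc2a1 rose and Pfkm, Ldha, Pgk1 and Gapdh fell. Whether glycolysis changed as a route was not tested. G6pc, glucose-6-phosphatase, held 142, 213 and 327 CPM at 2 mg/kg, against 476, 532 and 802 CPM at 0.5 mg/kg (-1.45 ± 0.18, adjusted p = 5.9e-06). Pck1, the gatekeeper enzyme of the pathway, held 1097, 1281 and 1932 CPM at 2 mg/kg, against 1478, 3571 and 4612 CPM at 0.5 mg/kg (-1.27 ± 0.21), with overlap through 1 low library at 0.5 mg/kg. Fbp1 fell (-0.75 ± 0.10) and Pcx, pyruvate carboxylase (-0.75 ± 0.08) while Fbp2, a form of fructose bisphosphatase best known from muscle, rose. Pklr, a pyruvate kinase, rose by 0.58 ± 0.08, and Hk2, a hexokinase low in healthy tubule, held 2.42, 3.56 and 6.58 CPM at 2 mg/kg and 0.671, 1.52 and 3.17 CPM at 0.5 mg/kg (1.20 ± 0.36).

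Mitochondrial genes encoded in the nucleus fell together, and those of the mitochondrial genome did not. Of 32 respiratory chain subunits encoded in the nucleus 28 fell and none rose, 14 without overlap (median -0.26; 21 fell with total counts). Ndufs8, of complex I, held 130.1, 139 and 148 CPM at 2 mg/kg, against 169, 175 and 207 CPM at 0.5 mg/kg (-0.38 ± 0.06). Sdha, of complex II, held 624, 749 and 816 CPM at 2 mg/kg, against 881, 914 and 1021 CPM at 0.5 mg/kg (-0.32 ± 0.06). Of 13 mitochondrial transcripts none fell and 1 rose, mt-Nd1 (0.20 ± 0.06, groups overlapping), and together they took 8.77 to 9.63% of counted reads at 2 mg/kg and 7.21 to 9.4% at 0.5 mg/kg. Among 29 genes of fatty acid oxidation 14 fell and none rose (median -0.31). Acaa2, the last step of mitochondrial beta-oxidation, held 89.1, 102 and 132 CPM at 2 mg/kg, against 182, 197 and 261 CPM at 0.5 mg/kg (-1.0 ± 0.12). Acadl, of the first mitochondrial step, fell (-0.41 ± 0.06), again without overlap. Got2, the mitochondrial aspartate aminotransferase, had one of the 5 smallest p among falling genes, with 152, 164 and 178 CPM at 2 mg/kg, against 237, 259.5 and 282 CPM at 0.5 mg/kg (-0.64 ± 0.05, adjusted p = 1.0e-08).

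**Figure D3:**
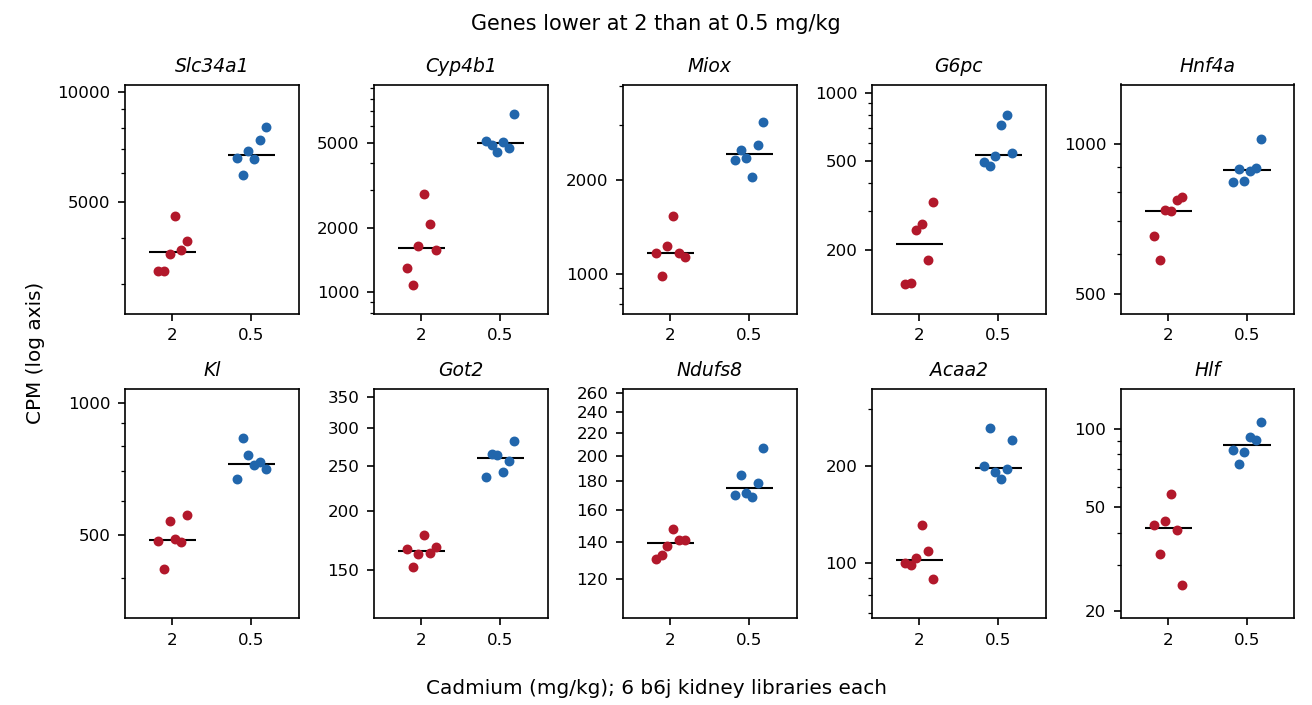
CPM (log axes) of 10 genes in each of the 6 b6j libraries at 2 mg/kg (red, left) and at 0.5 mg/kg (blue, right), with a bar at the group's median. In all 10 the highest library at 2 mg/kg lies below the lowest at 0.5 mg/kg, as for Slc34a1 with medians of 3666 CPM at 2 mg/kg and 6745 CPM at 0.5 mg/kg and Ndufs8 with medians of 139 CPM at 2 mg/kg and 175 CPM at 0.5 mg/kg.

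Tryptophan, glycine and one-carbon metabolism, also housed in the proximal tubule, had 15 of 27 tested genes lower and 4 higher (median -0.30; 2 higher without b6j_Cd2 replicate 5). Gldc, the glycine decarboxylase of the glycine cleavage system, held 24.6, 32.7 and 39.5 CPM at 2 mg/kg, against 66.3, 98.4 and 216 CPM at 0.5 mg/kg (-1.88 ± 0.22, adjusted p = 2.9e-06). On the route that makes NAD from tryptophan, Afmid fell (-1.18 ± 0.14) and Kmo (-1.07 ± 0.14), both without overlap. Sardh, which oxidises sarcosine, fell (-0.66 ± 0.08). Nampt, which recycles nicotinamide into NAD, rose by 0.31 ± 0.07, with no overlap.

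Of 15 genes of vitamin D, phosphate and calcium handling 9 fell and 2 rose (median -0.45). Over all genes 14.4% fell and 13.6% rose, and 2 of 15 is near that share of rises. Cyp24a1, which breaks down active vitamin D, had the largest fall among called genes averaging 5 CPM or more. Gm, Rik and pseudogene names were left out of that ranking. Cyp24a1 held 9.24, 23.6 and 51.1 CPM at 2 mg/kg and 42.3, 108 and 165 CPM at 0.5 mg/kg (-1.92 ± 0.40, adjusted p = 0.001), and the groups overlapped. Kl, klotho, the co-receptor for the phosphate hormone FGF23, held 418, 489 and 555 CPM at 2 mg/kg, against 672, 728 and 833 CPM at 0.5 mg/kg (-0.58 ± 0.06), without overlap. The vitamin D receptor Vdr fell (-0.45 ± 0.07). Cyp27b1, which makes active vitamin D, held 1.74, 1.86 and 3.17 CPM at 2 mg/kg and 2.44, 3.31 and 28 CPM at 0.5 mg/kg (-1.74 ± 0.50); 1 library at 0.5 mg/kg, replicate 2, was far above the others, and without it the change was -0.63 and not called (adjusted p = 0.09), nor was it by limma-voom (-1.12, adjusted p = 0.092). Slc20a1, a widely expressed phosphate carrier, rose by 1.01 ± 0.11.

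The other large falls were of mixed function. Cyp2d12, a cytochrome P450, held 31.3, 41 and 75.6 CPM at 2 mg/kg, against 123, 158 and 219.8 CPM at 0.5 mg/kg (-1.86 ± 0.25). Col27a1, a fibrillar collagen, held 41.2, 49.6 and 55.8 CPM at 2 mg/kg, against 88.6, 158 and 214 CPM at 0.5 mg/kg (-1.69 ± 0.15, adjusted p = 6.4e-08). Neither overlapped. Angptl7, a secreted angiopoietin-like protein, changed by -1.43 ± 0.23, the mitochondrial carrier Slc25a25 by -1.42 ± 0.21, Slc16a14 of the monocarboxylate carrier family by -1.37 ± 0.22, the acetyltransferase family genes Nat8f6 by -1.35 ± 0.15 and Nat8f1 by -1.34 ± 0.14, and Ppp1r16b, a regulatory subunit of protein phosphatase 1, by -1.34 ± 0.14, in each case without overlap. Beside Got2 the smallest p among falls belonged to the transcription factor Etv1 (-0.90 ± 0.07), 1810019D21Rik (-0.71 ± 0.06), the steroid dehydrogenase family gene Hsd3b3 (-0.83 ± 0.07) and the chromatin remodeller Chd3 (-0.64 ± 0.05). Etv1 held 15.9, 17.5 and 20.1 CPM at 2 mg/kg, against 30.6, 33 and 36.9 CPM at 0.5 mg/kg.

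Of 19 thick ascending limb and distal tubule genes 9 fell and none rose (median -0.22), and of 17 collecting duct genes 6 fell and none rose (median -0.22). Whether these differed from the proximal tubule lists was not tested. Slc12a3, the thiazide-sensitive carrier of the distal convoluted tubule, held 921, 1071 and 1208 CPM at 2 mg/kg, against 1318, 1403 and 1787 CPM at 0.5 mg/kg (-0.47 ± 0.08), and the calcium-binding Calb1 of the same segment fell (-0.75 ± 0.16), both without overlap. The thick limb's own defining genes were not called, with Umod, uromodulin, at 1850.4, 2408 and 3038 CPM at 2 mg/kg and 1249, 2359 and 2751 CPM at 0.5 mg/kg (0.15 ± 0.15) and Slc12a1 changed by 0.30 ± 0.16. In both, b6j_Cd0.5 replicate 6 was the low library. In the collecting duct the sodium channel subunit Scnn1a fell (-0.38 ± 0.07), the intercalated cell genes Slc4a9 (-0.54 ± 0.09) and Atp6v1b1 (-0.31 ± 0.06), while Aqp2, the water channel of principal cells, was at 147, 171 and 239 CPM at 2 mg/kg and 124, 163 and 229 CPM at 0.5 mg/kg (0.09 ± 0.23, adjusted p = 0.81).

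The glomerulus and the vessels showed little. Of 11 podocyte genes 1 fell (Clic5, -0.23 ± 0.07) and of 14 endothelial genes 1 fell (Robo4, -0.29 ± 0.09), neither called with total counts, with median changes of -0.12 and -0.11. The call of Robo4 also ends without b6j_Cd2 replicate 3 or 6 or b6j_Cd0.5 replicate 2 (adjusted p = 0.052 to 0.062). Nphs1, nephrin, of the podocyte slit diaphragm, held 7.73, 11.6 and 13.9 CPM at 2 mg/kg and 11, 13.9 and 14.8 CPM at 0.5 mg/kg (-0.23 ± 0.13, adjusted p = 0.22). Among 14 smooth muscle, pericyte and fibroblast genes 2 rose, Pdgfrb and the matrix proteoglycan Dcn (0.64 ± 0.17), and 1 fell, Myh11. Over all genes 13.6% rose and 14.4% fell, and 2 of 14 is near that share of rises. None of 8 urothelial genes was called.

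Macrophage and dendritic cell genes rose in 17 of 21 tested, none fell, and 4 had no overlap (median 0.56; 4 called with the 36 libraries in the fit, 17 with ob_Cd2 replicate 5 left out of it). Their summed level was 762 to 1082 CPM at 2 mg/kg, against 598 to 763 CPM at 0.5 mg/kg. Lyz2, lysozyme, held 42.6, 73.2 and 91.4 CPM at 2 mg/kg and 23, 32.4 and 44.4 CPM at 0.5 mg/kg (1.11 ± 0.18). The mannose receptor Mrc1 held 5.69, 6.67 and 9.78 CPM at 2 mg/kg, against 1.86, 2.99 and 3.38 CPM at 0.5 mg/kg (1.36 ± 0.21), and the complement gene C1qc rose by 0.67 ± 0.11, both without overlap. Among 15 T, B and natural killer cell genes 1 was called, Trac, the T cell receptor alpha constant gene, with 1.74, 2.43 and 3.72 CPM at 2 mg/kg and 0.832, 1.35 and 1.64 CPM at 0.5 mg/kg (1.02 ± 0.23). Of 10 neutrophil genes 3 were high enough to test and none was called.

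Of 12 NF-kB subunits and genes of its feedback 11 rose, none fell and 7 had no overlap (median 0.48). Nfkb2 held 38.7, 42.9 and 64.7 CPM at 2 mg/kg, against 18.7, 21.8 and 22.5 CPM at 0.5 mg/kg (1.12 ± 0.11), Relb rose by 1.0 ± 0.14, Nfkbiz by 0.68 ± 0.08 and the adhesion molecule Icam1 by 0.71 ± 0.09. Of 18 chemokines and cytokines 8 rose and 1 fell (median 0.77). Csf1, the growth factor of macrophages, held 24.8, 25.9 and 45.3 CPM at 2 mg/kg, against 7.64, 10.8 and 12 CPM at 0.5 mg/kg (1.49 ± 0.16). Il1rn, the interleukin 1 receptor antagonist, held 3.37, 4.35 and 10.2 CPM at 2 mg/kg, against 0.0714, 0.484 and 1.18 CPM at 0.5 mg/kg (3.28 ± 0.50), the lowest value being under the CPM worth of 3 counts. Ccl2, the chemokine that draws monocytes, held 1.28, 4.16 and 5.25 CPM at 2 mg/kg and 0.124, 1.09 and 1.55 CPM at 0.5 mg/kg (1.96 ± 0.47), and Cxcl1 rose by 1.36 ± 0.28, both with overlap. The member that fell was Ccl28, a mucosal chemokine, with 2.59, 5.21 and 6.58 CPM at 2 mg/kg, against 7.01, 12.3 and 15.3 CPM at 0.5 mg/kg (-1.27 ± 0.27, adjusted p = 0.0014), and its step from untreated kidneys to 0.5 mg/kg was -1.58 ± 0.26.

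Complement genes rose in 10 of 14 and fell in 1 (median 0.50). Cfi, complement factor I, held 29.6, 42.3 and 63.2 CPM at 2 mg/kg, against 6.14, 7.39 and 8.52 CPM at 0.5 mg/kg (2.62 ± 0.20, adjusted p = 5.0e-09). C4b held 45.8, 66.9 and 99.3 CPM at 2 mg/kg, against 12.1, 16.2 and 24.3 CPM at 0.5 mg/kg (2.05 ± 0.19), and C3 rose by 1.89 ± 0.22. None overlapped. Cfb, factor B, fell (-0.69 ± 0.09). With the 2 libraries that stand apart left out 5 rose and 1 fell. Interferon-response and MHC class I genes rose in 16 of 26 and none fell (median 0.54), Stat2 by 0.61 ± 0.07, the antiviral Bst2 by 1.07 ± 0.13, B2m by 0.66 ± 0.09 and Irf1 by 0.60 ± 0.10. Bst2 held 33.3, 36.1 and 60.9 CPM at 2 mg/kg, against 16.4, 19.1 and 25.2 CPM at 0.5 mg/kg.

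Matrix genes rose in 12 of 27 and fell in 1, Timp3 (median 0.32; 7 rose with the 2 libraries that stand apart left out). The basement membrane collagens Col18a1 (0.62 ± 0.08) and Col4a1 (0.39 ± 0.06) had no overlap. Col1a1, the main collagen of scar, held 28.2, 37.6 and 50 CPM at 2 mg/kg and 18.5, 26.1 and 36.3 CPM at 0.5 mg/kg (0.56 ± 0.20, adjusted p = 0.039), with overlap, and that call ends without any one of b6j_Cd2 replicates 2, 3, 4 and 5 or b6j_Cd0.5 replicates 2, 5 and 6 (adjusted p = 0.05 to 0.096). Immediate early genes rose in 9 of 17 and fell in 1. Myc held 13.8, 18 and 21.9 CPM at 2 mg/kg, against 3.64, 6.82 and 7.61 CPM at 0.5 mg/kg (1.47 ± 0.22), Klf6 rose by 1.0 ± 0.14 and Fos by 1.93 ± 0.37, while Dusp1, a phosphatase that shuts off MAP kinases, fell (-0.65 ± 0.14).

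**Figure D4:**
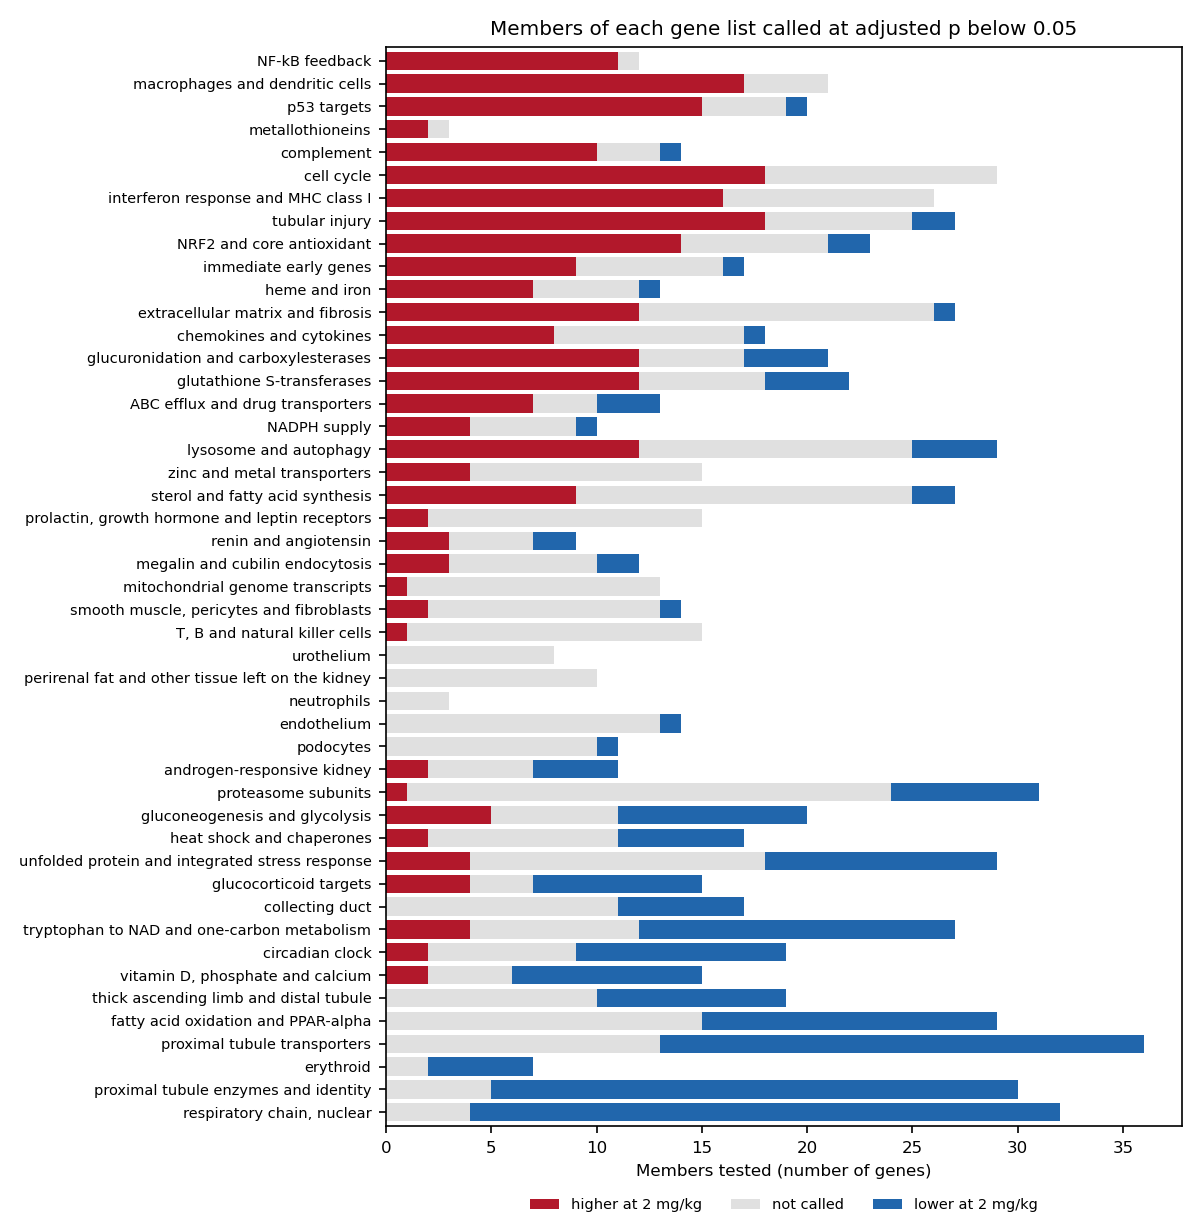
Number of tested members of each gene list called higher (red), not called (grey) or called lower (blue) at 2 over 0.5 mg/kg in b6j kidneys, with lists ordered by the share higher minus the share lower. Of all genes 13.6% were higher and 14.4% lower; the NF-kB feedback list has 11 of 12 higher and the nuclear respiratory chain list 28 of 32 lower.

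Called genes of protein folding and protein stress were more often lower than higher, a balance that depends on scaling. Over all genes 13.6% were higher and 14.4% lower, and the rises in the first 2 lists here are near that share. Of 17 heat shock and chaperone genes 2 rose, Hsp90aa1 and Bag3 (0.48 ± 0.09), and 6 fell, among them Dnaja1 (204, 259 and 274 CPM at 2 mg/kg, against 299, 326 and 368 CPM at 0.5 mg/kg, -0.38 ± 0.07). Of 29 genes of the unfolded protein and integrated stress responses 4 rose and 11 fell (median -0.10). In 6 members all libraries at 2 mg/kg lay above all at 0.5 mg/kg, and in 6 all lay below (6.67% and 6.98% over all genes). With total counts 6 rose and 4 fell, so that the balance turned, 8 rose without b6j_control replicate 4, and 7 fell without b6j_Cd0.5 replicate 6. In the 12 compared libraries alone 7 rose and 11 fell. Herpud1, of the endoplasmic reticulum's degradation complex, held 197, 245 and 266 CPM at 2 mg/kg, against 369, 404 and 449 CPM at 0.5 mg/kg (-0.79 ± 0.08, adjusted p = 1.9e-07). The reticulum chaperone Hspa5, BiP, fell (-0.43 ± 0.08) and Creld2 (-0.67 ± 0.08), also without overlap. On the other side Chac1, which breaks down glutathione and is turned on by ATF4, held 4.95, 7.2 and 8.09 CPM at 2 mg/kg, against 1, 1.94 and 2.43 CPM at 0.5 mg/kg (1.93 ± 0.46), and Ddit4, an inhibitor of mTOR, rose by 0.81 ± 0.12. Proteasome subunits fell in 7 of 31 and rose in 1, Psmd11 (0.35 ± 0.06), with Psmc3 at -0.32 ± 0.06; with total counts 3 fell and 2 rose, and without either b6j_Cd0.5 replicate 5 or 6 there were 4 falls.

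Lysosome and autophagy genes rose in 12 of 29 and fell in 4 (median 0.01). The 4 falls are near the share of all genes that fell, 14.4%. Psap, the precursor of the saposins, held 3534, 3874 and 4052 CPM at 2 mg/kg, against 2576, 2715 and 2999 CPM at 0.5 mg/kg (0.48 ± 0.06). The protease Ctsd rose by 0.67 ± 0.08 and the autophagy receptor Sqstm1, p62, also an NRF2 target, by 0.73 ± 0.10, both without overlap. Sterol and fatty acid synthesis genes rose in 9 of 27 and fell in 2 (4 rose with the 2 libraries that stand apart left out, 14 without b6j_Cd0.5 replicate 5 and 5 without b6j_Cd2 replicate 6). Elovl6, which lengthens fatty acids, rose by 0.61 ± 0.12, and Hmgcs1, an early step of cholesterol synthesis, fell (-0.39 ± 0.06).

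Of 19 clock genes 10 fell and 2 rose, with a median of -0.44; the hour at which kidneys were taken is not recorded in the labels, so a difference in hour between the groups cannot be told apart from dose. Hlf held 25.2, 41.8 and 56.3 CPM at 2 mg/kg, against 73, 86.8 and 106 CPM at 0.5 mg/kg (-1.12 ± 0.13). Usp2 (-0.90 ± 0.11) and Tef (-0.54 ± 0.10) fell, without overlap. Arntl, BMAL1, which peaks opposite to these, held 3.25, 6.04 and 18.3 CPM at 2 mg/kg and 1.25, 2.68 and 5.51 CPM at 0.5 mg/kg (1.34 ± 0.37, and 0.86 without b6j_Cd2 replicate 6). Glucocorticoid targets fell in 8 of 15. Errfi1 held 261, 285 and 341 CPM at 2 mg/kg, against 525, 579 and 840.4 CPM at 0.5 mg/kg (-1.09 ± 0.09, adjusted p = 3.8e-08), and Tsc22d3, GILZ, fell (-0.75 ± 0.14). The 4 that rose were Mt1, Mt2, Cdkn1a and Lcn2, which other lists here hold too.

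Of 11 genes that androgen raises in mouse kidney 4 fell and 2 rose. Kap, the abundant kidney androgen-regulated protein, held 11195, 14707 and 18499.9 CPM at 2 mg/kg, against 21383, 22074 and 26300.4 CPM at 0.5 mg/kg (-0.63 ± 0.10), Odc1, which starts polyamine synthesis, fell (-0.87 ± 0.15), Cyp2j13 (-1.29 ± 0.14) and Cyp4a12a (-1.25 ± 0.16). None overlapped. Of 9 renin-angiotensin genes 3 rose and 2 fell. Mas1, the receptor for angiotensin 1-7, held 18.3, 19.6 and 21.5 CPM at 2 mg/kg, against 3.59, 4.41 and 7.18 CPM at 0.5 mg/kg (2.05 ± 0.19, adjusted p = 1.4e-07), and its step from untreated kidneys was 1.21 ± 0.21; the receptor Agtr1a fell (-0.32 ± 0.07). Of 15 genes of prolactin, growth hormone and leptin receptor signalling 2 rose (13.6% of all genes did, and 2 of 15 is near that share), the transcription factor Stat3 (0.52 ± 0.06) and its feedback inhibitor Socs3 (6, 9.65 and 10.6 CPM at 2 mg/kg, 2.71, 4.17 and 5.22 CPM at 0.5 mg/kg, 1.12 ± 0.17), both without overlap.

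Genes of other tissues mark what else the samples held. Erythroid genes fell in 5 of 7, with a summed level of 254 to 350.3 CPM at 2 mg/kg, against 416 to 662 CPM at 0.5 mg/kg and 303 to 562 CPM in untreated kidneys. Hba-a1, an alpha globin, held 72.4, 87.9 and 103 CPM at 2 mg/kg, against 146, 195 and 256 CPM at 0.5 mg/kg (-1.14 ± 0.17), and Hbb-bs fell (-0.82 ± 0.17). Alas2, the heme synthesis enzyme of red cell precursors, fell (-0.67 ± 0.16). None of 10 genes of perirenal fat and adrenal was called, though their median change was 1.24. In the fits to 36 and 35 libraries 2 were called higher. Cidec, of fat cells, held 0.874, 3.33 and 18.2 CPM at 2 mg/kg and 0.714, 1.33 and 6.41 CPM at 0.5 mg/kg (1.39 ± 0.67; called without b6j_Cd0.5 replicate 4, 1.96, adjusted p = 0.044), and Star, of the adrenal cortex, held 3.2, 3.6 and 31.2 CPM at 2 mg/kg and 3.52, 3.65 and 3.98 CPM at 0.5 mg/kg, its highest library being b6j_Cd2 replicate 3. Star was not called (1.13 ± 0.46, adjusted p = 0.072), was called without b6j_Cd2 replicate 2, 4 or 6, with total counts and in the fits to 36 and 35 libraries (adjusted p = 0.021 to 0.049), and was at -0.08 without b6j_Cd2 replicate 3. Of 17 liver genes, a list written after these values were seen, 15 were called higher, and 2 with b6j_Cd2 replicate 5 and b6j_Cd0.5 replicate 6 left out, or 2 without b6j_Cd2 replicate 5 alone. Of 2 adrenal cortex genes tested 1 rose, and of 5 fat cell genes none was called (median 1.25). Both lists were also written after values were seen. The part of these tissues in other results was not tested.

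The dose step was then set beside that of ob kidneys, which share no sample with it. The ob step called 3570 of 17238 genes (20.7%), and 4958 of 17432 (28.4%) without ob_Cd2 replicate 5. Without that library 3150 genes were called in both kinds of mouse, all in the same direction, which is 64.6% of the ob calls and 66.4% of the b6j calls among genes tested in both. With it 2354 were called in the same direction and 2 in opposite ones, 67.2% of ob calls and 49.7% of b6j calls.

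A test of the difference itself, ob step minus b6j step, called 51 of 18180 genes (0.281%), 47 of them with the lower step in ob (0.259%), and 82 of 18380 (0.446%) without ob_Cd2 replicate 5, 73 with the lower step in ob (0.397%). Detoxification genes named above are among them. The values that follow leave that library out. Ugt2b35 rose by 2.31 ± 0.25 in ob kidneys, a step smaller than in b6j kidneys by a log2 difference of -4.17 ± 0.35 (adjusted p = 1.2e-09). Hmox1 rose by 1.22 ± 0.13 in ob kidneys, a difference of -2.27 ± 0.22 (adjusted p = 2.0e-08). For Aldh1a1 the difference was -2.0 ± 0.19, for Gstm3 -3.15 ± 0.34, for Cbr3 -2.42 ± 0.27, for Ugt2b5 -2.74 ± 0.40, for Gsta1 -3.07 ± 0.57, for Gstm1 -1.24 ± 0.18, for Abcc4 -1.36 ± 0.20 and for Ceacam3 -2.80 ± 0.46, all called. In ob kidneys, all 12 libraries included, Hmox1 held 1007, 1361 and 2079 CPM at 2 mg/kg and 507, 665 and 727 CPM at 0.5 mg/kg, and Ugt2b35 held 39.4, 124 and 267 CPM at 2 mg/kg and 20.1, 34.2 and 53.4 CPM at 0.5 mg/kg. At 0.5 mg/kg all 6 ob kidneys lay above all 6 b6j kidneys in both genes, and at 2 mg/kg the ranges of ob and b6j kidneys overlapped in both. That comparison was not tested.

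Of the injury and p53 genes named above only Fga was called for the difference. Clu, not named above and given last in this paragraph, was called with the higher step in ob kidneys. Havcr1 rose by 3.19 ± 0.34 in ob kidneys, a difference of 0.27 ± 0.92 (adjusted p = 0.99), and Lcn2 by 1.95 ± 0.19, a difference of 0.74 ± 0.28 (adjusted p = 0.4). Ccng1 differed by -0.05 ± 0.16 and Phlda3 by -0.21 ± 0.18. Fga had 0.34 ± 0.13 in ob kidneys and a difference of -1.44 ± 0.25 (adjusted p = 0.0012; -0.49 and 0.77 with all 36 libraries). Slc7a11 rose by 4.18 ± 0.48 in ob kidneys, a difference of 0.75 ± 0.69 that was not called. Among proximal tubule genes Slc34a1 differed by 0.22 ± 0.13 and Cyp4b1 by -0.21 ± 0.28, neither called, and a missed call does not show that the steps are alike. Mt1 rose by 0.60 ± 0.11 in ob kidneys (difference -0.56 ± 0.18, adjusted p = 0.24). Among genes not called in b6j kidneys, Slco1a1, an organic anion carrier of the proximal tubule, had an ob step of -3.48 ± 0.50, while b6j kidneys held 107, 224 and 406 CPM at 2 mg/kg and 269, 311 and 353 CPM at 0.5 mg/kg (-0.41 ± 0.21, difference -3.05 ± 0.54, adjusted p = 0.0015). In b6j kidneys Slco1a1 was called without b6j_Cd2 replicate 6 (-0.65, adjusted p = 0.01) and by limma-voom (-0.55, adjusted p = 0.047). The zinc and cadmium importer Slc39a8 differed by -0.99 ± 0.20 (adjusted p = 0.011), with an ob step of -1.02 ± 0.14. Clusterin, Clu, differed by 0.95 ± 0.18 (adjusted p = 0.0037), with an ob step of 1.08 ± 0.10. With all 36 libraries the difference of Clu was 1.57 (adjusted p = 0.041).

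**Figure D5:**
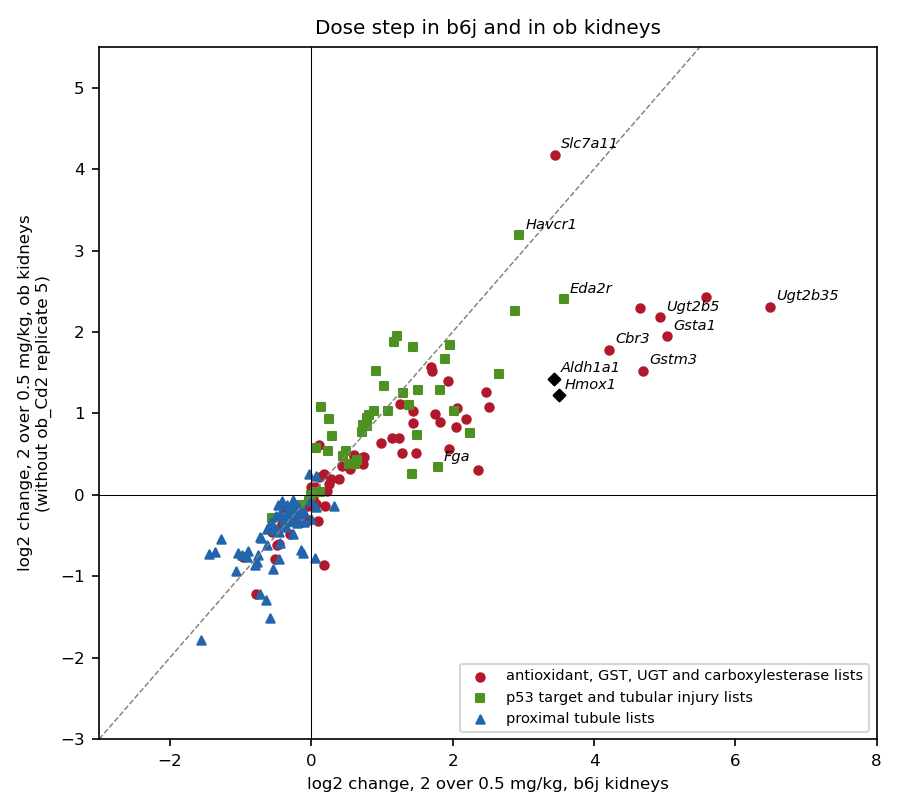
Log2 change of 2 over 0.5 mg/kg in b6j kidneys (horizontal) and in ob kidneys without ob_Cd2 replicate 5 (vertical) for members of the detoxification lists (red circles), the p53 and injury lists (green squares) and the proximal tubule lists (blue triangles), with Hmox1 and Aldh1a1 as black diamonds; the dashed line marks equal change. Ugt2b35, with 2.31 in ob and 6.49 in b6j kidneys, lies far below the line, and Havcr1, with 3.19 in ob and 2.94 in b6j kidneys, lies near it.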

How the data were processed

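RNA of 36 snap-frozen mouse kidneys was extracted with TRIzol, per the labels' protocols. Per the submitters' processing notes reads went through bcl2fastq, Trimmomatic, FastQC and STAR on GRCm38. Per the file headers the deposited values are raw counts per gene over exons from featureCounts 1.4.6-p2 with the Ensembl 96 annotation and its default that ignores strand, so reads of overlapping genes on opposite strands cannot be told apart (68 of the 209 named genes have such a neighbour). A joined table of 36 columns was not used.

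Each file lists 55536 genes, of which 22878 had no count in the 18 b6j libraries. edgeR 4.0.16 in R 4.3.3 (filterByExpr, TMM scaling, glmQLFit, glmQLFTest) was fitted to the 18 b6j libraries with 1 mean per group, and p was adjusted by Benjamini-Hochberg over all genes kept. The fit was tested on simulated data. The ob step used the 18 ob libraries, and its difference from the b6j step all 36. The alternatives were other sets of libraries, DESeq2 1.42.0, limma 3.58.1 (voom with quality weights), other scalings and filters, the replicate number as a block, and each library left out in turn. Leaving out 2 libraries together was chosen after seeing the data. The labels call the samples replicates without naming animals beyond that, so p-values measure the spread between these samples.

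Named were Mt1, Mt2, Hmox1, Havcr1, Lcn2, Slc39a10 and Ccl28, the 12 largest rises and 12 largest falls with a mean of at least 5 CPM, the 5 smallest p in each direction and up to 4 members of each list with the smallest p. The largest rises and falls were taken among called genes, with Gm, Rik, accession-style and pseudogene names left out. A few genes that these rules give are not reported here. A further 50 genes were chosen after their values were seen. The comparison, the 47 lists and these rules were chosen with earlier results of these data known, and 3 lists (liver, adrenal cortex, fat cells) were added after values were seen. The floor of 3 counts covers counting error only.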

Additional observations from a re-analysis of the deposited data

Results flagged for a closer look

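In the 2 compared groups, the CPM of each named gene was searched for 1 library whose gap to the nearest other, on log2(CPM + 0.5), is wide for its group's range (Dixon's 95% value for 6 libraries). Of 418 groups of 6 values 39 (9.33%) held such a library, where chance gives about 5%. Below, each value stands against the range of the other 5 libraries of its group.

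b6j_Cd0.5 replicate 6 accounts for 19 of them, and had Csf1 at 7.64 CPM, against 10.2 to 12 CPM, then Cyp4b1 at 6834 CPM, against 4522 to 5085 CPM, then Ddit4 at 24.4 CPM, against 18.2 to 20 CPM, then Fth1 at 6379.7 CPM, against 3938 to 4440.3 CPM. The library also had Gclm at 303 CPM, against 357 to 392 CPM, then Gstm3 at 2.07 CPM, against 0.849 to 1.21 CPM, then Hnf4a at 1026 CPM, against 840.4 to 897 CPM, then Kap at 26300.4 CPM, against 21383 to 22874 CPM. Further values were Lcn2 at 3.07 CPM, against 5.53 to 7.55 CPM, then Mrc1 at 1.86 CPM, against 2.75 to 3.38 CPM, then Mup20 at 1.28 CPM, against 0 to 0.268 CPM, then Myc at 3.64 CPM, against 6.14 to 7.61 CPM. It had besides Ndufb10 at 224 CPM, against 175 to 189 CPM, then Pcx at 1158 CPM, against 921 to 988 CPM, then Sdha at 1021 CPM, against 881 to 917 CPM, then Slc12a1 at 547 CPM, against 1121 to 1359 CPM. Beyond these it had Slc39a10 at 13.9 CPM, against 20.9 to 25.6 CPM, then Sqstm1 at 1043 CPM, against 819 to 859.9 CPM, then Umod at 1249 CPM, against 2151 to 2751 CPM.

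In b6j_Cd2 replicate 2, which has the highest fat cell sum, the values were Col18a1 at 297 CPM, against 209.7 to 236 CPM, then Csf1 at 45.3 CPM, against 24.8 to 31.1 CPM, then Dnaja1 at 204 CPM, against 248 to 274 CPM, then Lrp2 at 2200.2 CPM, against 2788 to 3141 CPM. The library also had Phlda3 at 33.8 CPM, against 19.6 to 24 CPM, then Serpinb9b at 21.3 CPM, against 7.99 to 10 CPM, then Slc39a8 at 54.5 CPM, against 67.9 to 76.9 CPM.

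b6j_Cd2 replicate 5, which carries liver transcripts, had Alb at 750.4 CPM, against 19.1 to 28.8 CPM, then Ces1c at 43 CPM, against 5.48 to 9.7 CPM, then Mup20 at 61.5 CPM, against 0 to 1.57 CPM, then Serpina1e at 58.4 CPM, against 0.126 to 2.63 CPM. b6j_Cd2 replicate 3, which carries adrenal cortex transcripts, had Star at 31.2 CPM, against 3.2 to 3.8 CPM. In b6j_Cd0.5 replicate 2 the values were Col27a1 at 88.6 CPM, against 154 to 214 CPM, then Cyp27b1 at 28 CPM, against 2.44 to 5.27 CPM, then Rrm2 at 4.73 CPM, against 3.11 to 3.6 CPM, then Ugt2b35 at 1.74 CPM, against 0.804 to 1.04 CPM. A single gene stood out in b6j_Cd2 replicate 4, Ugt2b5 at 114 CPM, against 222 to 325 CPM. In b6j_Cd2 replicate 6 it was Angptl7 at 1.82 CPM, against 5.6 to 8.5 CPM. For b6j_Cd0.5 replicate 1 the gene was Slc48a1 at 173 CPM, against 184 to 191 CPM. In b6j_Cd0.5 replicate 5 it was Mmp14 at 5.56 CPM, against 7.87 to 8.72 CPM.

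For 17 named genes the dose step differed between ob and b6j kidneys in edgeR's test of the difference over all 36 libraries (log2, ob step minus b6j step). In 16 the ob step was the lower: Abcc4 (-1.45), Aldh1a1 (-2.0), Cbr3 (-2.48), Ceacam3 (-2.87), Gsta1 (-2.99), Gsta2 (-1.06), Gsta4 (-1.60), Gstm1 (-1.44), Gstm3 (-3.35), Hmox1 (-2.37), Rpia (-0.53), Slc39a8 (-1.16), Slco1a1 (-3.30), Ugt2b34 (-1.31), Ugt2b35 (-4.39), Ugt2b5 (-2.93). For Clu it was the higher (1.57). Rpia was no longer called without ob_Cd2 replicate 5 (adjusted p = 0.053), and the other 16 were.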

How the results depend on the processing

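The count of 4763 called genes was 3143 with all 36 libraries in the fit (2961 of them shared), where the falls numbered 1547, and between 4204 and 4897 when any 1 library was left out (2009 to 2421 rises, 2141 to 2551 falls, 640 to 772 over 2-fold). The common dispersion was 0.0489 with 36 libraries, 0.0258 without ob_Cd2 replicate 5 and 0.0265 in the 18 b6j libraries. Total-count scaling gave 3729 rises and 1441 falls. The 704 genes over 2-fold were 1072 with no filter on low counts and 465 at a mean of at least 1 CPM. DESeq2 called 5027 genes and limma-voom 4809. The difference between ob and b6j had 51 calls, and 82 without ob_Cd2 replicate 5. Same-numbered replicates did not deviate together (correlations -0.0581 to 0.0528, no library closest to its own number), and with the replicate number as a block 4472 genes were called.

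Of 6053 recomputed changes of the 209 named genes 5940 kept direction and side of the threshold, 93 lost the call, 9 gained it and 11 turned. With 1 library left out at a time Alb ran between -0.23 (without b6j_Cd2 replicate 5) and 2.61, Star between -0.079 (without b6j_Cd2 replicate 3) and 1.29, Aqp2 between -0.00015 (without b6j_Cd2 replicate 4) and 0.18, Slc11a2 between -0.11 and 0.018 (without b6j_Cd2 replicate 2), and Slc39a8 between -0.12 and 0.045, above 0 without b6j_Cd0.5 replicate 2, b6j_Cd0.5 replicate 4 or b6j_Cd2 replicate 2. Alb was -0.19 with b6j_Cd2 replicate 5 and b6j_Cd0.5 replicate 6 both left out. With total counts Slc11a2 turned to 0.068, Slc39a10 to 0.018 and Slc39a8 to 0.074. Of these genes Alb was called, and Star was called only under some alternatives (adjusted p = 0.021 to 0.049). The cause was not tested. In 16 list counts of at most 2 calls, leaving out 1 library added or removed 1 call. Genes near 3 counts (0.0817 to 0.107 CPM) are limited by depth.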
